A study of Mus musculus with 6 samples.

Results

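The 55 genes described here encode splicing factors and heterogeneous nuclear ribonucleoproteins (hnRNPs), the proteins that find splice sites and decide which exons of a transcript are joined. They are the rows of the count table whose symbols begin with Srsf and a digit, Hnrnp, Sf3a or Sf3b and a digit, Snrp or U2af, with pseudogene symbols left out, and they make up 55 of the 15106 genes in the table. They fall into 11 SR protein genes, 20 hnRNP genes, 9 genes of the SF3 complexes, 12 genes of small nuclear ribonucleoprotein (snRNP) proteins and 3 U2AF genes. The libraries were made from T cells sorted out of the skin of mice aged 6 weeks that carry a FOXP3-GFP reporter, which both groups share. Regulatory T cells (Tregs), the suppressive cells that depend on the transcription factor FOXP3, gave 4 libraries, and effector T cells (Teffs) gave 2. The labels do not give the strain, the further gate that defined Teffs, or whether each library stands for its own animal. P-values therefore measure the spread between these libraries, which may be technical in part. The comparison asks how much of the splicing machinery differs in transcript level between both populations of the same tissue.

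Splicing begins when the U1 snRNP pairs with the start of an intron and U2AF binds its end, the large subunit (U2af2) at the polypyrimidine tract and the small subunit (U2af1) at the closing AG. The U2 snRNP, with SF3A and SF3B as its subcomplexes, then settles on the branch point, and a ring of Sm proteins holds the RNA core of the U1, U2, U4 and U5 particles. SR proteins bind enhancer sequences in exons and promote their inclusion, whereas hnRNPs often act as repressors and also handle RNA export and stability. In T cells this machinery is best known for the switch in CD45 isoforms on activation, in which hnRNPLL leaves out variable exons of the Ptprc transcript.

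Counts in genes came to 5582022 to 7046685 in Treg libraries and to 7468778 and 4902126 in Teff libraries, and counts were found for 9602 to 12605 genes in Tregs and for 13197 and 11894 genes in Teffs. Levels are given as counts per 1e+06 counts of the scaled library size (CPM), and the values of single libraries follow their numbers, Treg 1 to Treg 4 and Teff 1 to Teff 2. Foxp3 stood at 103, 233, 154 and 183 CPM in Tregs, against 11.3 and 7.17 CPM in Teffs. The sorted gene was thus high in every library labelled Treg. Summed over the 5 T cell markers examined (Cd3d, Cd3e, Cd3g, Cd2 and Lck), levels were 3636 to 7414 CPM in Tregs, against 6604 and 7302 CPM in Teffs. Treg 3 held fibroblast transcripts (5 of 5 markers in the table, 1951 CPM summed, against 3.85 to 8.30 CPM in the other Treg libraries and 146 and 3.88 CPM in Teffs) and keratinocyte transcripts (5 of 6 markers in the table, 746 CPM, against 0.541 to 24.8 CPM and 118 and 46.9 CPM). Treg 4 held more of the myeloid and dendritic markers (4 of 6 in the table, 745 CPM, against 134 to 170 CPM in the other Tregs and 294 and 252 CPM in Teffs). The CD8 markers Cd8a and Cd8b1 summed to 0.18, 12.8, 11.9 and 65.6 CPM in Tregs, against 142 and 93.6 CPM in Teffs. The gamma-delta T cell markers (2 of 3 in the table) were at 0 in every Treg library, against 15.5 and 14.9 CPM in Teffs, and the endothelial markers (2 of 3 in the table) summed to 16.1 to 66.1 CPM, against 85.0 and 121 CPM. The 2 endothelial markers went opposite ways, with log2 fold changes, Treg minus Teff, of -1.39 and 0.56. The part of such cells in the results was not tested. In sorted bulk samples, fewer cells of a type and less RNA per cell cannot be told apart.

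The summed level of all 55 genes was nearly the same in both populations. It came to 9911, 9370, 9029 and 8763 CPM in Tregs, against 9616 and 8849 CPM in Teffs. The mean was 9268 ± 495 CPM in Tregs (SD, n = 4) and 9232 ± 542 CPM in Teffs (SD, n = 2), so the groups differed by less than the spread between libraries. The 5 genes of highest mean CPM made up 36.4% (Teff 2) to 52.5% (Treg 1) of this sum. As a share of unscaled counts, the genes took 0.872% to 0.9311% in Tregs and 0.973% and 0.9314% in Teffs. By that measure every Treg library lay below both Teffs, with Treg 2 and Teff 2 almost touching. By mean CPM, which takes no account of gene length, many of them ranked high. Of the 55, 16 lay in the top 10% of tested genes. Of the 53 that passed the filter on low counts, 40 lay at or above the median of all tested genes (33.1 CPM).

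**Figure D1:**
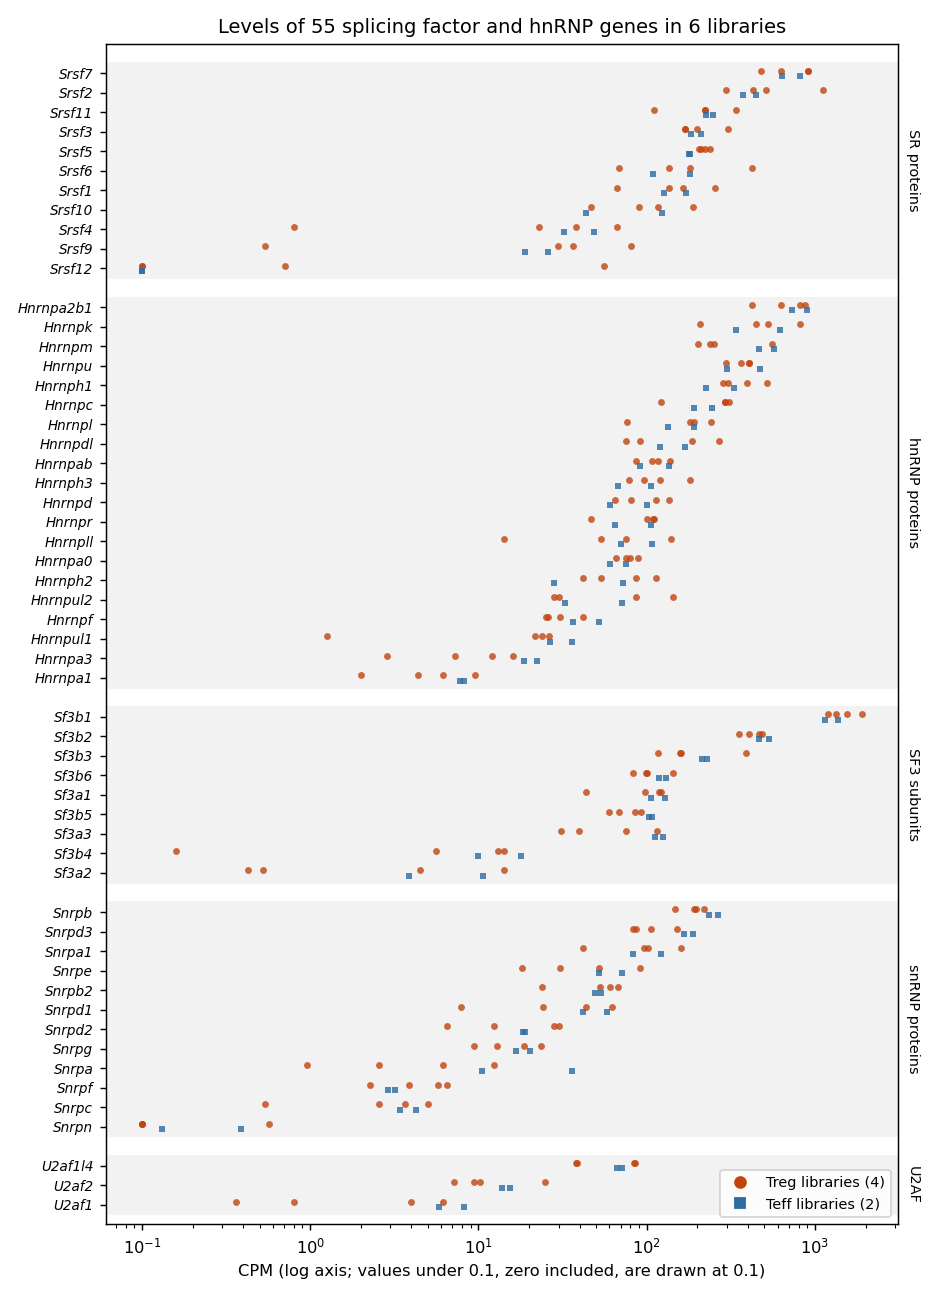
The level of each of the 55 genes in CPM on a log axis, with 1 orange circle per Treg library and 1 blue square per Teff library, ordered by mean level within each family. Circles and squares interleave for most genes, and single Treg libraries stand far to the left for Srsf4, Srsf9, Hnrnpul1 and Sf3b4; values under 0.1 CPM are drawn at 0.1.

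Levels of different genes can be set side by side only per length of transcript, so CPM was divided by the exonic length in kilobases of each gene in the GENCODE M21 annotation. Srsf7 (chr17:80200080-80207307, GRCm38), an SR protein with a zinc knuckle, was highest at 206 ± 59.9 CPM per kb in Tregs and 205 ± 36.5 CPM per kb in Teffs. Srsf2 (chr11:116849901-116853094), which binds exonic enhancers in the nucleus, followed at 198 ± 122 against 139 ± 16.9 CPM per kb. Sf3b1 (chr1:54985169-55027481), the SF3B subunit that contacts the branch point region, stood at 132 ± 27.4 against 110 ± 13.9 CPM per kb. Hnrnpa2b1, a reader of RNA in export and splicing, stood at 104 ± 30.6 against 123 ± 17.7 CPM per kb, and Snrpb, which encodes the Sm ring proteins B and B', at 95.3 ± 15.2 against 126 ± 10.8 CPM per kb (SD, n = 4 Treg and n = 2 Teff libraries in each case). In Tregs, neighbours in this order differed by less than the larger of their SDs. With the longest coding transcript as the length, the same 5 genes led, with Hnrnpa2b1 at rank 1 and Srsf7 at rank 2.

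Some of the lowest levels belong to genes that share a large part of their transcript with copies elsewhere in the genome. The table's counter lists alignments that were not unique apart from the genes, and these made up 61.2% to 64.9% of a Treg column and 66.2% and 63.7% of a Teff column. The longest coding transcript of each gene was cut into all of its words of 50 bases, and each word was looked up in the GENCODE M21 transcripts of genes at other loci, pseudogenes included. For 19 of the 55 genes more than 10% of words were found elsewhere, and for 20 none were. The share was 59.4% for U2af1, 51.9% for Hnrnpf, 49.3% for Sf3b4 and 46.4% for Hnrnpa1, and pseudogenes held all of these words for U2af1, Sf3b4 and Hnrnpa1. A stretch of U2af1 and one of Hnrnpa1, picked after their levels were seen, show how close such copies are. Each is 90 bases of coding sequence inside 1 exon of GRCm38 beside the copy that shares the most words, and in neither pair does a base differ between gene and copy, so none is in capitals.
U2af1, chr17:31648676-31648765, minus strand: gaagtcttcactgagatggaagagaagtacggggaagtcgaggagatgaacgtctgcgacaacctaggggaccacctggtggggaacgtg
Gm10232, chr17:3044395-3044484, minus strand: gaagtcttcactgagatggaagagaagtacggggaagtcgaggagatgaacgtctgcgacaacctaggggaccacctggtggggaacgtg
Hnrnpa1, chr15:103241080-103241169, plus strand: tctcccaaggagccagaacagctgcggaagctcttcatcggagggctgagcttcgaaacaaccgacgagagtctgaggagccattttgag
Gm10052, chr9:123690088-123690177, minus strand: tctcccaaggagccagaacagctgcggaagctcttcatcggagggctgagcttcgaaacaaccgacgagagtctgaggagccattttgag

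Over the whole coding sequence, U2af1 differed from Gm10232 at 2 of 717 aligned bases. Hnrnpa1 was identical to Gm10052 over all 960 aligned bases of its 1119 coding bases. Reads from such stretches cannot be assigned to 1 locus, so the levels of these genes are uncertain, and the part of shared sequence in them was not tested. Genes with more than 10% of shared words had a median of 10.8 CPM per kb, and 8 of 19 lay under 5 CPM per kb. The other 36 had a median of 29.1 CPM per kb, and 5 of them lay under 5 CPM per kb. The Spearman correlation between the shared share and the level was -0.37 over the 55 genes, which share libraries and depth, and -0.32 with words of 100 bases. Sharing did not go with a low level in every case: Hnrnpk had 34.5% of its words elsewhere and stood at 76.2 CPM per kb, and Srsf12 had none and stood at 2.98 CPM per kb.

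**Figure D2:**
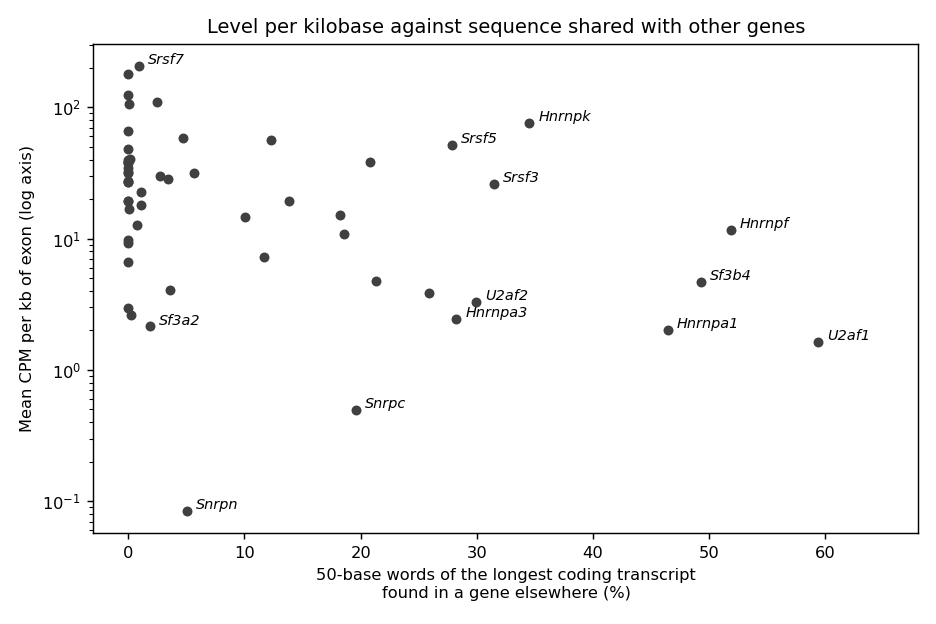
Mean level over 6 libraries in CPM per kb of exon (log axis) against the percentage of 50-base words of the longest coding transcript that occur in a gene at another locus, with 1 point per gene. U2af1, Sf3b4, Hnrnpa1 and Hnrnpf lie at the right, above 40% shared, and the points above 100 CPM per kb all lie at the left.

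No gene of the 55 passed the test for a difference between Tregs and Teffs. Of the 53 tested, 0 were higher (0.034% of all genes tested) and 0 were lower (0.00849%) in Tregs at an adjusted p under 0.05 in edgeR's quasi-likelihood test, and 0 had an unadjusted p under 0.05. Over all 11775 genes tested, 0.0425% were called and 4.73% had an unadjusted p under 0.05, so a list of 53 would hold few calls in any case. DESeq2 also called 0 of the 53, where it called 1.56% of all genes, and the authors' deposited table has an FDR of 1 for every one of the 55 and a lowest p of 0.166 (Srsf12), where 0.285% of its genes have an FDR under 0.05. The log2 fold change, Treg minus Teff, was positive for 22 and negative for 31 members, with a median of -0.08 beside 0.07 over all genes tested. With a replicate block the order of these medians turned, to -0.21 beside -0.64. Under upper-quartile scaling, which moved the median of all genes by -0.11, the split was 14 positive and 39 negative. The median absolute log2 fold change was 0.33, beside 0.61 over all genes and 0.44 over genes at or above the median level.

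The intervals say how large a difference these libraries could have missed. The 95% interval of the log2 fold change lay within ±1, a doubling either way, for 4 members: Sf3b1, Srsf7, Sf3b2 and Hnrnpu. It lay within ±2 for 31 of 53 (58.5%, beside 22.7% of all genes tested). All 31 belonged to the 40 genes at or above the median level, which makes 77.5% of these, beside 45.3% of all genes at that level. For the 13 tested genes below that level the fold change is poorly known, with a median standard error of 1.57 on the log2 scale, beside 0.53 for the 40. A p that misses the threshold does not show that levels are equal.

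**Figure D3:**
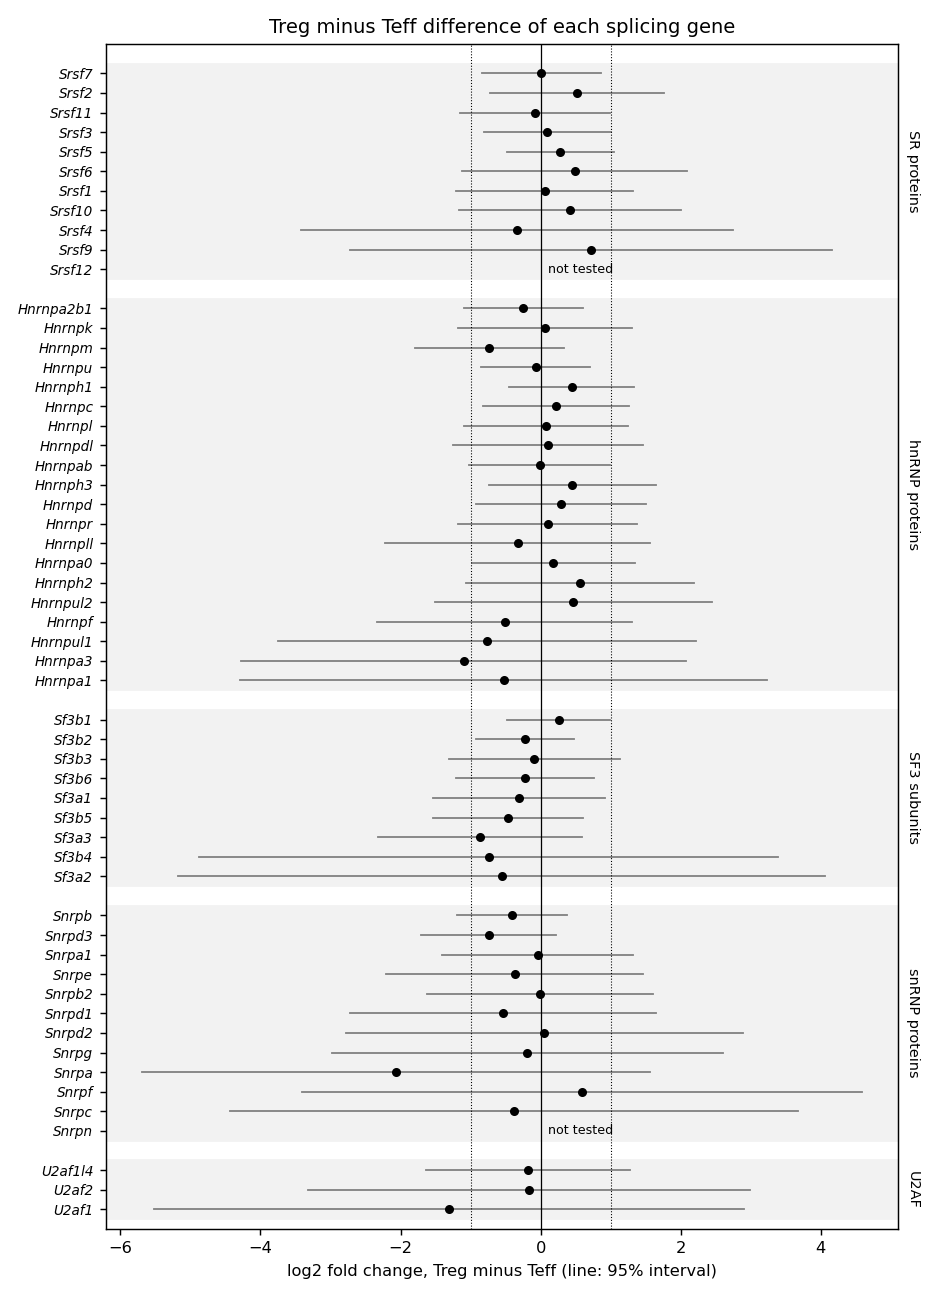
The log2 fold change, Treg minus Teff, of each tested gene (point) with its 95% interval from edgeR's quasi-likelihood fit (line), with dotted lines at ±1. Every interval crosses 0, and that of U2af1 runs from -5.52 to 2.91.

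The SR protein genes differed more between Treg libraries than between Tregs and Teffs. Their summed level was 3148, 2959, 2100 and 1886 CPM in Tregs, against 2358 and 2025 CPM in Teffs, so Treg 1 and Treg 2 lay above both Teffs and Treg 4 below both. The log2 fold change was positive for 8 of the 10 tested, beside 53.4% of all genes tested, with a median of 0.19. Without Treg 1 and Treg 2 the SR median became -0.01, with 5 of 10 positive. Under upper-quartile scaling 5 of 10 were positive, and without Teff 2 the median was -0.02. Srsf2 carried much of the excess in Treg 1, at 1111, 430, 512 and 295 CPM in Tregs, against 446 and 375 CPM in Teffs. Its log2 fold change was 0.52 ± 0.54 (SE), and the Teff values lay inside the Treg range. Exons of Mettl23 and Mfsd11 overlap 25.3% of its exonic bases on the other strand, and no source used here gives the strand setting of the counting.

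Srsf7 was at 907, 908, 480 and 627 CPM in Tregs, against 818 and 635 CPM in Teffs, for a log2 fold change of 0.01 ± 0.37 with an interval of -0.84 to 0.86. Srsf3, the smallest SR protein and a factor in mRNA export, was at 306, 170, 200 and 169 CPM against 211 and 184 CPM, a log2 fold change of 0.10 ± 0.39. Both genes overlapped between groups, and their sign depended on single libraries. Srsf5 was the one member of the 53 whose 4 Treg libraries all lay above both Teffs, at 238, 204, 209 and 223 CPM against 179 and 181 CPM. It was also the steadiest within Tregs, and the difference was small, a log2 fold change of 0.28 ± 0.33 (interval -0.48 to 1.04), with an unadjusted p of 0.420 in edgeR. Over all genes tested, 5.51% lay above in this way, beside 1.89% of the members, and under upper-quartile scaling Srsf5 overlapped too. Other loci held 27.8% of the 50-base words of Srsf5 and 31.5% of those of Srsf3 (17.9% and 20.7% with 100 bases). The levels of both genes are therefore uncertain.

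Srsf6 and Srsf1 had an order within Tregs unlike that of Srsf2. Srsf6, which binds enhancers in a range of exons, was at 68.9, 425, 137 and 181 CPM in Tregs, against 109 and 181 CPM in Teffs. Srsf1, the prototype of the family, was at 66.9, 255, 164 and 136 CPM against 172 and 127 CPM. Both were lowest in Treg 1 and highest in Treg 2, and their log2 fold changes were 0.48 ± 0.70 and 0.06 ± 0.55. Srsf4 and Srsf9 showed near loss in 1 library each. Srsf4 had 210, 5, 131 and 469 counts in Tregs, against 244 and 252 counts in Teffs, and exons of the antisense gene Gm12992 overlap 43.0% of its exonic bases. Srsf9 had 3, 506, 207 and 207 counts in Tregs against 143 and 133 counts in Teffs. Srsf12, a repressor-type SR protein of low abundance, was not tested: it had 347 counts in Treg 2, 5 in Treg 4 and 0 in the other 4 libraries.

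The hnRNP family had similar summed levels in both groups, at 3588, 3059, 4052 and 3710 CPM in Tregs, against 3786 and 3668 CPM in Teffs. Of the 20 genes, all tested, 11 had a positive and 9 a negative fold change (median log2 value 0.07). That median was -0.04 under upper-quartile scaling, -0.12 without Treg 2, -0.0041 without Treg 4 and -0.15 without Teff 1. Hnrnpa2b1 was at 815, 425, 629 and 871 CPM in Tregs, against 895 and 730 CPM in Teffs, for a log2 fold change of -0.25 ± 0.37. Hnrnpk, a KH-domain protein that binds C-rich RNA, was at 816, 207, 529 and 447 CPM against 617 and 338 CPM, with a log2 fold change of 0.07 ± 0.54. Hnrnpu, which tethers RNA to chromatin, was at 298, 404, 365 and 404 CPM against 302 and 471 CPM, with a log2 fold change of -0.07 ± 0.34. Hnrnpc, which binds uridine tracts and keeps cryptic exons out, was at 309, 122, 293 and 292 CPM against 244 and 192 CPM, with Treg 2 far below the other Tregs. In each of these 4 genes at least 1 Teff value lay inside the Treg range.

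Hnrnpm, a regulator of alternative exons linked to innate immune transcripts, held 1 Treg library far from the others, and it was chosen after its values were seen. It stood at 251, 237, 555 and 202 CPM in Tregs, against 568 and 466 CPM in Teffs. Only Treg 3, the library with fibroblast and keratinocyte transcripts, reached the level of the Teffs, and the part of those transcripts in its value was not tested. With all libraries the log2 fold change was -0.73 ± 0.46 with an unadjusted p of 0.149 in edgeR. Without Treg 3 it was -1.16 ± 0.32 with an unadjusted p of 0.00917 and an adjusted p of 0.380, so it passed in neither, and 7.04% of all genes then had an unadjusted p under 0.05. Exons of another gene on the same strand overlap 14.7% of its exonic bases.

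Hnrnpll, the factor that switches CD45 exons, was at 14.3, 53.8, 140 and 75.3 CPM in Tregs, against 70.7 and 107 CPM in Teffs. It was lowest in Treg 1 and highest in Treg 3, and the log2 fold change was -0.33 ± 0.82 (interval -2.22 to 1.56). Ptprc, its best known target, was at 5365, 2586, 2267 and 2941 CPM in Tregs, against 4036 and 3586 CPM in Teffs, for a log2 fold change of -0.21 ± 0.40. Counts per gene do not resolve its isoforms. Hnrnpa1, a repressor that binds many exons and the subject of the shared stretch above, was at 6.13, 9.60, 4.38 and 2.0 CPM against 8.21 and 7.75 CPM. Hnrnpa3, a close relative with 28.2% shared words, and Hnrnpul1, which links splicing and DNA repair, were the hnRNP genes whose Treg libraries all lay below both Teffs. Hnrnpa3 was at 7.22, 12, 16.1 and 2.85 CPM against 18.7 and 22.3 CPM. Hnrnpul1 was at 1.26, 24.0, 26.3 and 21.8 CPM against 26.5 and 36.0 CPM, with Treg 3 and Teff 1 almost touching.

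The SF3 genes summed to 2643, 2820, 2176 and 2315 CPM in Tregs, against 2575 and 2346 CPM in Teffs, with Sf3b1 the highest of them. Sf3b1 was at 1553, 1910, 1196 and 1334 CPM in Tregs, against 1365 and 1141 CPM in Teffs, for a log2 fold change of 0.26 ± 0.32 with an interval of -0.48 to 0.99. The other 8 members had negative log2 fold changes, as did 46.6% of all genes tested, and the median of the 9 was -0.31. It was -0.18 without Teff 1, -0.20 without Treg 4 and -0.12 with a replicate block, where 6 of 9 were negative. Some other settings made it more negative: -0.43 without Treg 1, -0.44 without Treg 1 and Treg 2, -0.46 without Teff 2 and -0.43 under upper-quartile scaling. Sf3a1, which carries the RNA-binding surface of SF3A, was at 119, 98.2, 121 and 43.4 CPM against 129 and 107 CPM. Sf3b5, a small SF3B subunit, was below both Teffs in every Treg library, at 68.7, 59.7, 85.6 and 92.6 CPM against 103 and 108 CPM, a log2 fold change of -0.46 ± 0.47, with an unadjusted p of 0.348 in edgeR. Sf3b4 had 79, 1, 75 and 39 counts in Tregs, against 135 and 51 counts in Teffs.

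Most of the snRNP protein genes had values on the low side. The fold change was negative for 9 of the 11 tested (median log2 value -0.37), beside 46.6% of all genes tested (median 0.07). This was not particular to them: it was negative for 69.6% of the LSM and SMN assembly factors described further on (median -0.50). The summed level of the snRNP protein genes was 437, 486, 631 and 753 CPM in Tregs, against 803 and 721 CPM in Teffs, so Treg 4 lay between the Teffs and the other Tregs below them. The snRNP median was -0.04 without Treg 1 and -0.25 without Treg 2, and without both 4 of 11 were negative and it was 0.08. Some other settings made it more negative: -0.41 without Treg 3, -0.42 without Treg 4, -0.46 under upper-quartile scaling and -0.67 with a replicate block. The cell cycle list, fixed with earlier results known, has a like order, at 802, 857, 1448 and 1476 CPM in Tregs, against 3407 and 2551 CPM in Teffs over its 22 genes, and its part in the snRNP values, like that of the CD8 markers given above, was not tested. None of those 22 passed the test over all genes.

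Snrpd3 (chr10:75517551-75537381 in GRCm38), an Sm ring protein, had the lowest p of the 53. It was at 86.0, 82.4, 106 and 151 CPM in Tregs, against 189 and 167 CPM in Teffs, with no overlap and a log2 fold change of -0.74 ± 0.42, with an unadjusted p of 0.113 and an adjusted p of 1.0 in edgeR. Snrpb, also of the Sm ring, was at 148, 220, 195 and 190 CPM against 235 and 265 CPM, with no overlap and a log2 fold change of -0.41 ± 0.34, with an unadjusted p of 0.268 in edgeR. Snrpd1, which pairs with another Sm protein in the ring, was at 24.2, 7.84, 62.6 and 43.7 CPM against 58.1 and 42.1 CPM and overlapped. Snrpa, the U1 protein that binds a stem-loop of U1 RNA, had the most negative log2 fold change, -2.06 ± 1.57, on 34, 6, 71 and 18 counts in Tregs, against 271 and 54 counts in Teffs. Snrpn, the imprinted gene of the neuronal Sm protein, was not tested, with 4 counts in Treg 4 and 0 in the other Tregs, against 1 and 2 counts in Teffs. Together, 5 members (Hnrnpa3, Hnrnpul1, Sf3b5, Snrpb and Snrpd3) lay below both Teffs in all 4 Treg libraries, which is 9.43% of the 53, beside 9.49% of all genes tested. Under upper-quartile scaling 0 members lay above both Teffs, beside 4.48% of all genes, and 8 lay below both, beside 11.3%.

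U2af1 and U2af2 were low in both groups, and U2af1l4 lay above the median level of all genes tested. U2af2 was at 9.38, 7.2, 24.9 and 10.3 CPM in Tregs, against 13.8 and 15.3 CPM in Teffs, for a log2 fold change of -0.17 ± 1.37. U2af1 was at 0.361, 0.800, 6.14 and 3.99 CPM against 8.21 and 5.81 CPM, a log2 fold change of -1.31 ± 1.83, on 2, 5, 35 and 28 counts against 62 and 30. The words of U2af2 and U2af1 were shared with other loci to 29.9% and 59.4%, so their levels are uncertain too. With words of 100 bases the shares were 6.14% and 49.5%, so that of U2af2 depended on the length of word. U2af1l4, a paralog of the small subunit, was at 85.0, 38.4, 37.9 and 83.9 CPM against 71.5 and 67.1 CPM, and exons of other annotated genes on the same strand overlap 65.6% of its exonic bases.

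**Figure D4:**
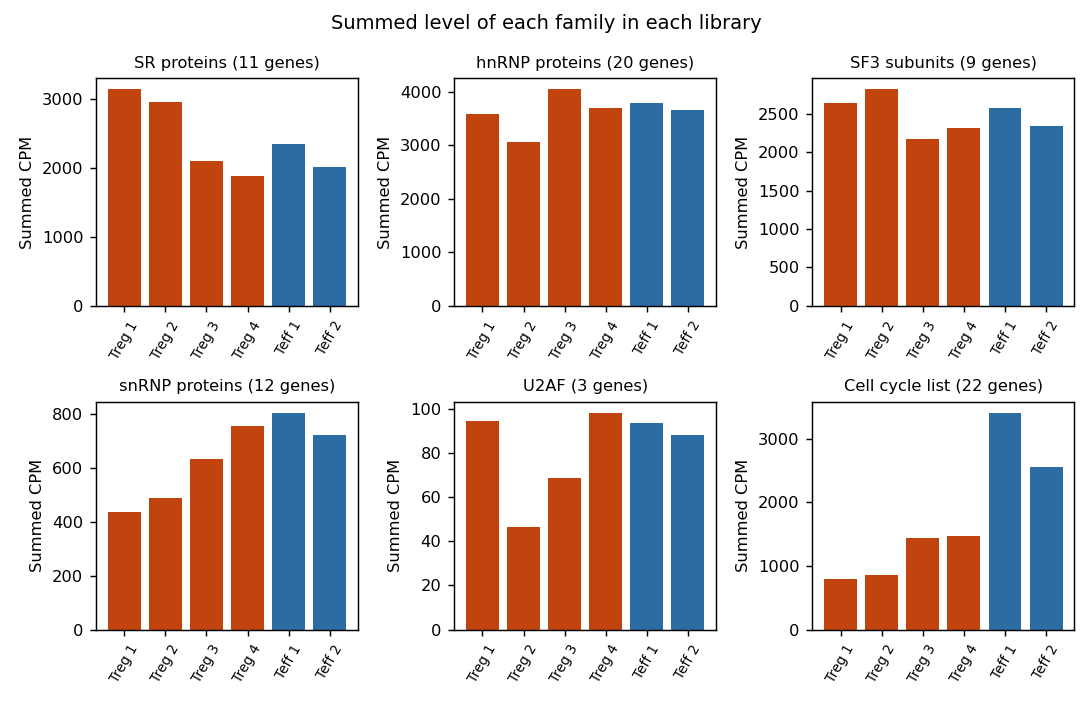
Summed CPM of each family in each library (bars start at 0), with Treg libraries in orange and Teff libraries in blue; the last panel shows the cell cycle list. The snRNP bars are lowest in Treg 1 and Treg 2 (437 and 486 CPM), where the SR bars are highest (3148 and 2959 CPM).

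The widest deviations from a gene's own mean lay in Treg 1 and Treg 2, the libraries with the fewest genes detected (9602 and 9838). Among the 53 tested members, the highest of the 6 values lay in Treg 1 or Treg 2 for 28 and the lowest for 32. The median absolute deviation from the gene's mean, on the scale of log2(CPM + 0.5), was 0.59, 0.53, 0.31 and 0.34 in Treg 1 to Treg 4 and 0.28 and 0.29 in Teff 1 and Teff 2. Over all genes tested it was 1.13, 1.12, 0.80 and 0.75 in Tregs and 0.65 and 0.64 in Teffs, so the order of the libraries was similar. Those values include genes of low level. Among genes at or above the median level, the median range within Tregs was 1.39 on that scale for the 40 members and 1.81 for all genes. Without a limit on level it was 1.62 for the 55 members and 2.91 for all genes tested. Also without that limit, it was 1.30 in the list of other regulatory RNA-binding proteins described further on. In the list of helicases and PRP proteins it was 1.51. Within Tregs, 17 of the 53 members (32.1%) ranged over more than 4-fold on the scale of CPM + 0.5, beside 64.8% of all genes. For 5 members (9.43%) the range was over 10-fold, beside 45.2% of all genes. These shares are not matched for level: among all genes below the median level the median range was 4.53 in log2(CPM + 0.5). Srsf12 and Snrpn were the 2 of the 55 with a library at 0 counts.

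Spearman correlations of counts over the 53 members were 0.800 to 0.909 between Treg libraries, 0.867 to 0.961 between a Treg and a Teff library and 0.952 between the Teffs. The lowest was that between Treg 1 and Treg 2, and the range between Tregs and Teffs lay higher than that among Tregs. Over all genes tested the ranges were 0.649 to 0.748, 0.700 to 0.815 and 0.883 for the same pairs. These correlations run over genes that share libraries and depth.

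**Figure D5:**
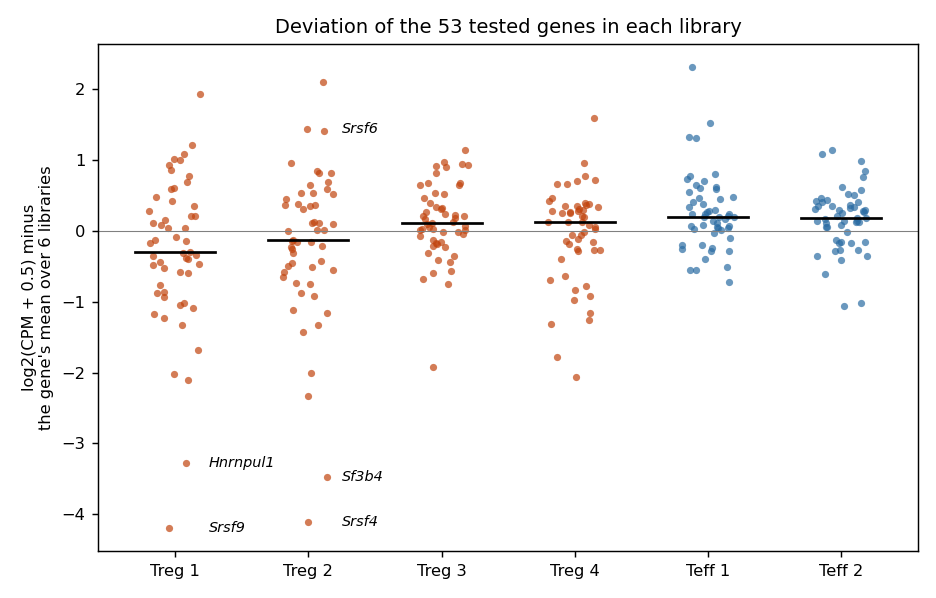
Deviation of each of the 53 tested genes from its own mean over 6 libraries, in log2(CPM + 0.5), with 1 point per gene and a black line at the median of each library (-0.30, -0.12, 0.12 and 0.12 in Tregs, 0.20 and 0.18 in Teffs). Treg 1 and Treg 2 have the widest clouds, with Srsf9 and Hnrnpul1 low in Treg 1 and Srsf4 and Sf3b4 low in Treg 2.

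Other genes of the splicing pathway also held no call. Over 5 further lists of 142 genes, all tested, 0 were called (0.0425% of all genes tested) and 0 had an unadjusted p under 0.05 (4.73% of all genes), 69 had a positive and 73 a negative log2 fold change, and the median was -0.04. These lists were other regulatory RNA-binding proteins (36 genes, median 0.10), helicases, PRP proteins and further snRNP proteins (56, median -0.07), kinases and phosphatases of SR proteins (12, median -0.0035), the exon junction complex (15, median -0.14) and LSM and SMN assembly factors (23, median -0.50). The 12 RNA polymerase II subunits, taken as a list of another pathway, had a median of -0.12 and 0 calls. All Treg libraries lay above both Teffs for 4 of the 142 and below both for 11, beside 5.51% and 9.49% of all genes tested.

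Celf2, a T cell regulator of alternative exons, was at 402, 379, 246 and 331 CPM in Tregs, against 590 and 523 CPM in Teffs, for a log2 fold change of -0.71 ± 0.32, with an unadjusted p of 0.0588 and an adjusted p of 1.0 in edgeR. Ptbp1, the polypyrimidine tract repressor, was at 224, 147, 171 and 249 CPM against 307 and 275 CPM, with a log2 fold change of -0.56 ± 0.36. Clk1, a nuclear kinase of SR proteins, lay on the other side without overlap, at 1434, 994, 917 and 1385 CPM against 862 and 822 CPM, with a log2 fold change of 0.49 ± 0.33. Srpk1, the cytoplasmic SR protein kinase, overlapped, at 222, 80.3, 284 and 329 CPM against 282 and 319 CPM. Among other genes without overlap, Ddx17 (310 ± 51.2 against 201 ± 87.9 CPM) and Pnn (281 ± 14.8 against 250 ± 3.60 CPM) were higher in all Treg libraries. Polr2e, of the RNA polymerase II list, was higher too, with a log2 fold change of 0.45. Phf5a, Ddx39b and Ppp1r8 were lower in all Treg libraries, with log2 fold changes of -0.33, -0.28 and -0.73. Zrsr2, a relative of U2af1 for minor introns, was also lower in all of them, at 31.5 ± 9.42 against 68 ± 4.91 CPM. So was Magoh, a core protein of the exon junction complex, at 36.1 ± 11.3 against 70.4 ± 12.1 CPM (SD, n = 4 Treg and n = 2 Teff libraries). None of these passed the test over all genes.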

How the data were processed

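RNA was sequenced from FACS-sorted skin Tregs (4 libraries) and Teffs (2 libraries) after column purification and SMARTer ultra-low-input cDNA synthesis, per the labels' protocols. Named in the submitters' processing notes, without roles, are HTSeq 0.6.1, TopHat2 2.0.12, Bowtie2 2.1.0.0, CASAVA 1.8.2, SAMtools 0.1.19.0 and the mm10 build. No source used here gives the annotation, the strand setting or the authors' test. The authors deposited whole-number counts per gene, and beside them a log2 fold change, a mean log2 CPM, a p-value and an FDR, per the file headers. Their fold change is positive where Tregs are higher, as checked against the counts (50 of 53 members had the sign found here).

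The counter's 3 rows that name no gene (88.0% to 90.2% of column totals) entered neither library sizes nor tests. The test was run in edgeR 4.0.16 (R 4.3.3, limma 3.58.1): filterByExpr at a minimum count of 10 left 11775 genes, TMM factors were 0.913 to 1.05, and glmQLFTest was run on group alone with Benjamini-Hochberg adjustment over all genes tested. The standard error is the log2 fold change over the square root of F, and 95% intervals use the fit's degrees of freedom. The code was run on simulated data, to check that it recovers set fold changes at a dispersion below that of these libraries. This check does not cover calls or intervals at the fitted spread, a common biological coefficient of variation of 1.20. A floor of 3 counts is 0.397 to 0.581 CPM, and floors cover counting error only. With 4 libraries against 2, a permutation test cannot go below p = 0.0667. Positions, lengths and sequences are from GENCODE M21 (GRCm38, the assembly of mm10), and all 55 symbols matched. Word sharing counts exact matches in annotated transcripts only.

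The genes and lists were chosen with earlier results of these data known. Genes named are members without overlap at or above the median level (up to 6 per direction), the 5 highest by CPM and per kb, the 3 of widest Treg range at or above the median level, untested members, a fixed list of 23, and up to 4 per further list by the first measure; other members were named after their values were seen. Alternatives were DESeq2 1.42.0, its size factors or upper-quartile scaling in edgeR, no filter, mean CPM of 10, each library left out, an adjusted p under 0.01 and a replicate block. Leaving out Treg 1 and Treg 2 together was added after seeing the data. The sequence of 1 further gene is not reported here.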

Additional observations from a re-analysis of the deposited data

Results flagged for a closer look

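Among the 4 Treg libraries, a single value stood apart from the other 3 by Dixon's criterion for the gap to the nearest value over the range for 6 of the 55 genes and for 3 of 12 summed lists. Chance gives about 1 in 20 for normal values, but by the same criterion 19.4% of all genes tested stood apart, beside 7.55% of the tested members (4 of 53), so the count of members is not a result about them. Hnrnpc was low in Treg 2 at 122 CPM, against 292 to 309 CPM in the other Treg libraries. Hnrnpm was high in Treg 3 at 555 CPM, against 202 to 251 CPM. Hnrnpr, a relative of hnRNP Q, was low in Treg 1 at 46.7 CPM, against 100 to 110 CPM. Sf3b3, a scaffold subunit of SF3B, was high in Treg 1 at 392 CPM, against 117 to 161 CPM. Srsf12 was high in Treg 2 at 55.5 CPM, against 0 to 0.713 CPM, and Snrpn was found among Tregs in Treg 4 alone at 0.571 CPM, which is 4 counts; with zeros in the others any count there would stand apart. The summed fibroblast markers (1951 CPM) and keratinocyte markers (746 CPM) stood apart in Treg 3, and the myeloid and dendritic markers (745 CPM) in Treg 4.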

How the results depend on the processing

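No member and none of the 142 other splicing genes was called under any alternative, and the members' median log2 fold change stayed between -0.21 (replicate block) and -0.01 (without Treg 1 and Treg 2). Over all genes, 4 higher and 1 lower calls became 141 and 43 in DESeq2, 17 and 2 with no filter, 9 and 6 with the replicate block, and 0 and 0 both at an adjusted p under 0.01 and without Treg 1 and Treg 2; with each library left out they were 0 to 2 higher and 0 lower. The cause of these shifts was not tested. Upper-quartile scaling moved the median of all genes by -0.11 and left 14 members positive and 39 negative (22 and 31 with TMM); members without overlap became 0 higher and 8 lower (4.48% and 11.3% of all genes). Reversed log2 fold changes were those of Srsf7 (-0.11), Hnrnpk (-0.041), Srsf1 (-0.055) and Srsf3 (-0.022) with upper-quartile scaling, and Srsf7 (-0.021) with the filter at mean CPM 10. Without Treg 1 and Treg 2, Srsf7 (-0.39), Srsf2 (-0.025), Srsf3 (-0.099), Srsf4 (0.15), Hnrnpll (0.28), Snrpd1 (0.084), U2af2 (0.27) and Srpk1 (0.030) reversed. With each library left out, ranges that crossed 0 were -0.18 to 0.19 (Srsf7), -0.33 to 0.56 (Hnrnpk), -0.895 to 0.013 (Hnrnpll), -0.14 to 0.19 (Srsf3), -0.37 to 0.26 (Hnrnpu), -0.98 to 0.070 (Srsf4), -0.29 to 0.31 (Srsf1), -0.17 to 0.87 (Srsf6) and -0.69 to 0.029 (U2af2). Replicate numbers 1 and 2 occur in both groups, and deviations of same-numbered libraries from their group means correlated at -0.031 and 0.16. With 2 Teff libraries the deviations of Teff 1 and Teff 2 mirror each other. These correlations therefore cannot tell whether same-numbered libraries are paired. The replicate block, which takes Treg 3 and Treg 4 out of the comparison, reversed Hnrnpk (-0.15), Srsf1 (-0.17) and Hnrnpc (-0.16). It gave the hnRNP genes a median of -0.14, while the median of all genes moved to -0.64. Among the 13 tested members under the median level no interval lay within ±2, beside 0.034% of all genes under that level. The part of depth in this was not tested.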
